A study of Homo sapiens with 17 samples.

Results

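The 7 genes ATF4, ATF5, DDIT3, PPP1R15A, PPP1R15B, SLC35A4 and IFRD1 were followed through ribosome profiling and mRNA sequencing of edited HEK293 cells. They were chosen because their mRNAs carry reading frames upstream of the main one and because the main frame is known to be translated better when eIF2 is phosphorylated. Each gene was represented, at each time point, by the transcript with the highest summed count. They were 7 of 15660 genes that had reads at 36 h, and 7 of 17023 at 72 h. Of the 7, all reached a mean of 20 reads per library in mRNA at both times, but only ATF4, PPP1R15A, PPP1R15B and IFRD1 did so in footprints, so 4 of 7 could be tested for footprints and translational efficiency.

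The cells were HEK293, an established line derived from human embryonic kidney. They had been electroporated with a ribonucleoprotein of the guide sgIntron, which targets intron 12 of JAK2, and either Cas9, which cuts DNA, or dCas9, a catalytically dead form that binds without cutting. For these libraries the labels give 300 pmol of nuclease and 300 pmol of guide. Ribosome footprints and mRNA were sequenced after 36 h and 72 h in 17 libraries. At 36 h there were 3 Cas9 and 2 dCas9 mRNA libraries and 2 Cas9 and 2 dCas9 footprint libraries, and at 72 h there were 2 libraries of each kind. Both arms of a time point received guide and protein, so the comparison is of cutting with binding. The guide was synthetic at 36 h and transcribed in vitro at 72 h, and the aligner and annotation also changed between the time points, so time cannot be told apart from these steps. Cells of several small electroporations were pooled into a plate. By the study's methods a plate of such pooled cells was a biological replicate, all from the same line, so p-values measure the spread between plates.

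Phosphorylation of eIF2 by one of its kinases lowers the supply of the ternary complex that brings initiator tRNA to the ribosome, and most translation falls. A few mRNAs behave in the opposite way. Ribosomes that have translated a short upstream frame stay on the mRNA and scan on, and when ternary complex is scarce they pass over an inhibitory upstream start codon and reinitiate at the main one. In other such mRNAs, scanning ribosomes pass over a poorly placed upstream start codon. ATF4 is the transcription factor at the centre of this integrated stress response, ATF5 is a related factor, and DDIT3 encodes CHOP, a factor that promotes cell death when stress persists. PPP1R15A (GADD34) and PPP1R15B (CReP) are subunits that direct protein phosphatase 1 to eIF2 and so reverse its phosphorylation, PPP1R15A as the inducible form and PPP1R15B as the constitutive one. SLC35A4 belongs to a family of nucleotide sugar transporters, and IFRD1 is a transcriptional coregulator.

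The start codons are shown first, because the position and surroundings of an upstream ATG set how many ribosomes can reach the main frame. The windows below were read from GENCODE release 44 transcripts on hg38 and run 5′ to 3′ along the mRNA, with the ATG, the base 3 before it and the base after it in capitals. A purine in the first of those positions and a G in the other are the bases that favour recognition of a start codon. The set holds, for each gene, the upstream start that overlaps the main frame or opens the longest or last upstream frame, with the first upstream start of DDIT3 and the main starts of ATF4 and SLC35A4 for comparison.
ATF4 upstream frame of 59 codons, chr22:39520747-39520749, plus strand: ggcttaaGccATGGcgcttctca
ATF4 main frame of 351 codons, chr22:39521446-39521448, plus strand: gcaccgcAacATGAccgaaatga
ATF5 upstream frame of 59 codons, chr19:49929396-49929398, plus strand: tgctgcaGccATGGagtcttcca
DDIT3 upstream frame of 34 codons, chr12:57520478-57520480, minus strand: tgagcgtAtcATGTtaaagatga
DDIT3 upstream frame of 73 codons, chr12:57517436-57517438, minus strand: ctgaaagCagATGTgcttttcca
PPP1R15A upstream frame of 26 codons, chr19:48872554-48872556, plus strand: tgagggtGagATGAacgcgctgg
PPP1R15B upstream frame of 51 codons, chr1:204411640-204411642, minus strand: ccccgccAggATGGaagtcgcat
SLC35A4 upstream frame of 103 codons, chr5:140564844-140564846, plus strand: ggcggggAagATGGcggatgaca
SLC35A4 main frame of 324 codons, chr5:140567170-140567172, plus strand: ttgtgtgGgtATGAgtgtagagg
IFRD1 upstream frame of 52 codons, chr7:112450487-112450489, plus strand: agagagaAacATGTatcgttttc

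All upstream start codons lie in the 5′ untranslated part of an exon of the MANE Select transcript, the reference transcript agreed for each gene. In ATF4, the leader of 282 bases held 3 upstream ATGs, which open frames of 1, 3 and 59 codons. The last of these begins 97 bases before the main start, in another frame, and runs 83 bases into the main frame. The ATF5 leader of 315 bases had the same layout, with a frame of 3 codons followed by one of 59 codons that overlaps the main frame by 56 bases. DDIT3 had 3 upstream ATGs in a leader of 177 bases. Its frames of 34 and 31 codons end at the same stop, and the third frame, of 73 codons, overlaps the main frame by 190 bases.

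In the remaining 4 genes no upstream frame reached the main start. The last upstream frame of PPP1R15A ended 26 bases before it, that of PPP1R15B 75 bases before it, and the only one of IFRD1 43 bases before it. SLC35A4 was the most crowded, with 11 upstream ATGs in a leader of 735 bases. Its longest upstream frame, of 103 codons, ended 407 bases before the main start. For comparison, 41.4% of the MANE Select transcripts of all genes with reads (15093 at 36 h and 16437 at 72 h) had an upstream ATG, with a median of 0 and a 90th percentile of 3 per transcript, and 13.0% had an upstream frame that overlaps the main one.

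**Figure D1:**
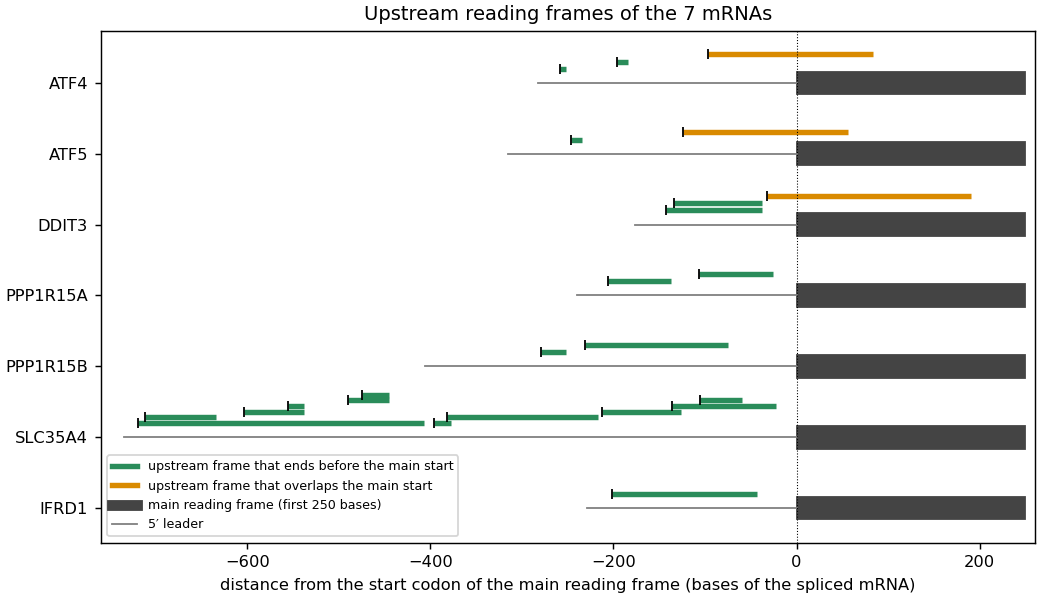
Upstream reading frames of the 7 mRNAs, drawn to scale against the distance in bases from the main start codon. Green bars are upstream frames that end before the main start, orange bars are those that overlap it, short vertical marks are upstream ATGs, grey lines are 5′ leaders and dark boxes the first 250 bases of the main frame. ATF4, ATF5 and DDIT3 each have 1 overlapping frame, and SLC35A4 has 11 upstream ATGs.

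Depth differed much more in footprints than in mRNA. Over the transcripts kept, footprint libraries held 689636 to 4868580 reads at 36 h and 3183554 to 8864458 at 72 h, whereas mRNA libraries held 25095493 to 33350938 and 33040299 to 42825671. The 2 shallow footprint libraries at 36 h were dCas9 e and Cas9 a, with 689636 and 957811 reads. The HEK293 markers LIN28B and NEFL were present at medians of 75.7 and 40.3 CPM per kilobase of counted coding length in mRNA at 36 h and 83.5 and 33.7 at 72 h. NEFM was lower, at 3.85 and 1.33, and PAX2 had 0 to 12 mRNA reads per library. Markers of other cells were HBG1, HBE1 and GATA1 (erythroid), PTPRC (leukocyte) and ALB (liver). At 36 h only PTPRC and ALB had a kept transcript, and they summed to between 0 and 0.751 CPM per mRNA library. At 72 h all 5 summed to between 0.0576 and 0.289 CPM, and GATA1 had no mRNA read but 8 footprints. The 4 HEK293 markers summed to 120.0 to 128 CPM in Cas9 and 122 to 135 CPM in dCas9 mRNA libraries at 36 h, and to 115 to 121 CPM and 114 to 122 CPM at 72 h. CPM is the read count scaled to library size with edgeR's TMM factor. Intervals on counts cover counting error only.

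The mRNA levels of the 7 genes spanned a wide range and kept most of their order between the time points. ATF4 was by far the most abundant, at 588 ± 46.0 CPM per kilobase (SD, n = 5 libraries) at 36 h and 598 ± 49.5 (SD, n = 4) at 72 h, the 98.01 and 98.20 percentiles of all tested genes. The median gene had 19.03 and 18.01 CPM per kilobase. PPP1R15B came next, at 68.9 ± 3.58 and 68.6 ± 1.56 CPM per kilobase. In bulk samples such as these, fewer cells and less RNA per cell cannot be told apart.

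At 36 h the middle of the order was close. SLC35A4 stood at 40.5 ± 4.45 CPM per kilobase of mRNA, PPP1R15A at 36.1 ± 3.64, IFRD1 at 34.9 ± 5.19 and DDIT3 at 26.0 ± 5.49 (SD, n = 5), and each of these overlapped its neighbour in the order over single libraries. At 72 h IFRD1 stood above the others at 41.9 ± 6.23, PPP1R15A at 25.2 ± 2.01 overlapped SLC35A4 at 23.6 ± 4.38, and DDIT3 lay below both at 14.3 ± 1.05 (SD, n = 4). ATF5 was the least abundant mRNA at both times, at 9.75 ± 1.48 and 4.91 ± 0.582 CPM per kilobase, and it overlapped no other gene of the 7.

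Footprints gave a different picture. ATF4 had 77.9 ± 21.0 CPM per kilobase of footprints at 36 h and 44.9 ± 3.32 at 72 h (SD, n = 4), only the 77.3 and 71.3 percentiles of tested genes. At 36 h the footprints of DDIT3, ATF5 and SLC35A4 were near the limit of detection, with 12, 16 and 16 reads in all 4 libraries together. DDIT3 had 0 reads in both Cas9 libraries and in dCas9 e, and 12 in dCas9 d. A count of 0 allows up to 3 reads, which corresponds to 3.22 CPM in Cas9 a, 1.21 in Cas9 c, 0.605 in dCas9 d and 4.50 in dCas9 e. At 72 h, in deeper libraries, the 3 genes had 28, 71 and 57 reads.

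**Figure D2:**
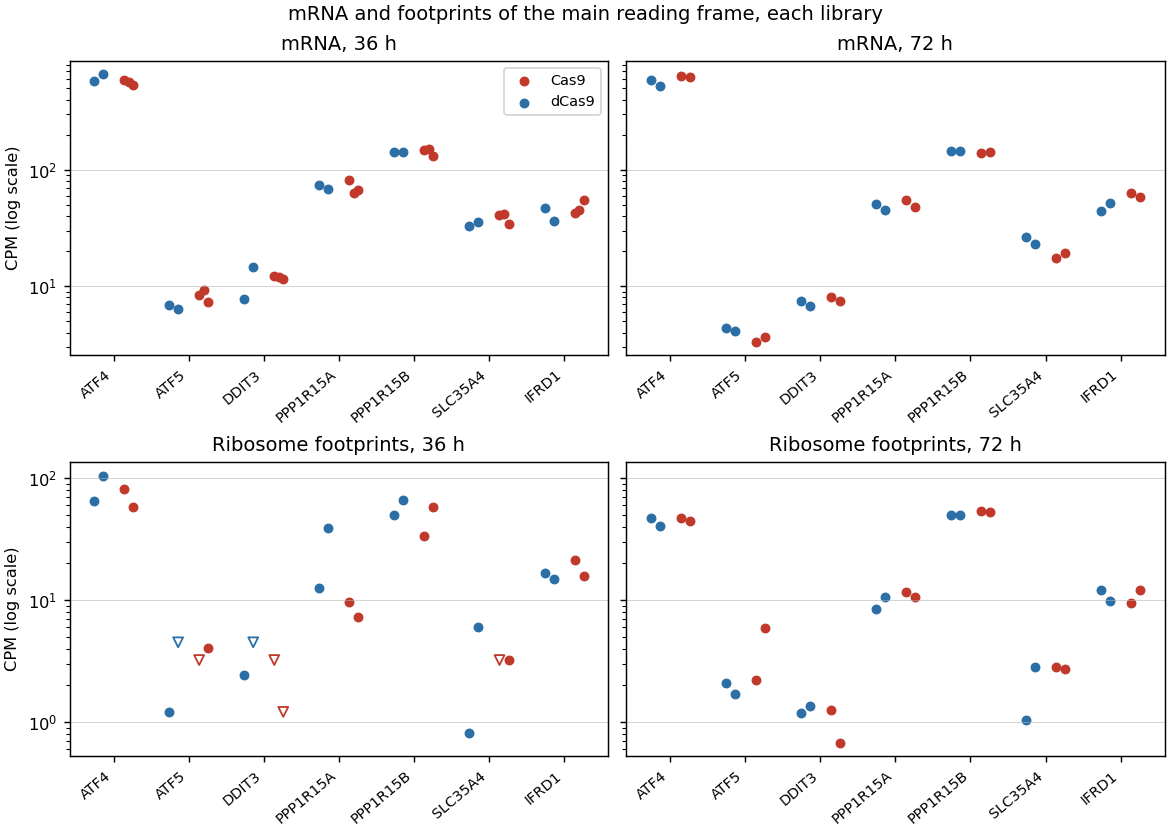
mRNA (top) and ribosome footprints (bottom) of the main reading frame at 36 h (left) and 72 h (right), in CPM on a log scale, with each point 1 library (red, Cas9, and blue, dCas9). Open triangles mark libraries with a count of 0, drawn at the level of 3 reads. ATF4 mRNA lies between 528 and 658 CPM in every library, and its footprints between 40.3 and 105 CPM.

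Footprints per mRNA were low for most of the 7 genes, with ATF5 at 72 h the exception. Each 95% interval is the exact Poisson interval for the footprint count, with the mRNA count taken as fixed. The ratio divides the CPM of footprints, summed over the libraries of a time point, by that of mRNA. It was below the median of all genes with enough mRNA (0.816 at 36 h over 12824 genes and 0.810 at 72 h over 13175) in 7 of 7 genes at both times. At both times 5 of the 7 lay below the 10th percentile of all genes, which was 0.290 and 0.298. The interval of ATF5 at 72 h, with both nucleases pooled, contained the median. These positions describe genes chosen for upstream frames and were not tested. The counts do not separate reading frames. In ATF4, ATF5 and DDIT3 they can therefore include footprints of the upstream frame that overlaps the main one.

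ATF4 yielded 610 footprints for 84830 mRNA reads at 36 h, a ratio of 0.116 (95% interval 0.107 to 0.125). At 72 h it yielded 1085 for 85894, a ratio of 0.0744 (0.0700 to 0.0789), which was 10.9-fold below the median gene and at the 1.34 percentile. Hence the most abundant mRNA of the group was, per mRNA read, among the least occupied by ribosomes over the counted part of its main frame. The ratio was low in every lysate at 36 h, at 0.139 and 0.110 in Cas9 a and c and 0.112 and 0.160 in dCas9 d and e.

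SLC35A4 had a main-frame ratio of 0.0480 (0.0274 to 0.0779) at 36 h and 0.107 (0.0807 to 0.138) at 72 h. DDIT3 stood at 0.113 (0.0584 to 0.197) at 36 h, where all 12 footprints came from dCas9 d and the other 3 lysates had a ratio of 0, and at 0.154 (0.102 to 0.222) at 72 h. At 72 h the DDIT3 transcript with the most reads was one with a longer coding frame, and the MANE Select transcript gave 0.161 (0.105 to 0.236). PPP1R15A, the inducible phosphatase subunit, had 0.179 (0.148 to 0.215) and 0.207 (0.182 to 0.234), the 5.18 and 5.20 percentiles. PPP1R15B, its constitutive relative, was better occupied and nearly the same at both times, at 0.363 (0.331 to 0.398) and 0.355 (0.335 to 0.375). The intervals of the phosphatase subunits, which cover counting error of footprints over pooled libraries, did not overlap each other at either time. Single lysates at 36 h did overlap, from 0.109 to 0.572 for PPP1R15A and from 0.223 to 0.467 for PPP1R15B, and in dCas9 e the order was reversed (0.572 against 0.467). At 72 h no pair of libraries overlapped, with 0.168 to 0.240 for PPP1R15A and 0.338 to 0.389 for PPP1R15B.

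IFRD1 moved within the order, from 0.369 (0.312 to 0.432) at 36 h to 0.203 (0.179 to 0.228) at 72 h. ATF5 went the other way, from 0.232 (0.132 to 0.376) to 0.740 (0.578 to 0.933), the 44.6 percentile. That pooled 72 h value rested largely on library Cas9 f, which held 35 of the 71 footprints. By nuclease, ATF5 at 72 h stood at 1.32 (0.952 to 1.79) in Cas9 and 0.440 (0.295 to 0.632) in dCas9. Neighbours in the order whose intervals overlap, such as DDIT3 and ATF4 at 36 h or IFRD1 and PPP1R15A at 72 h, were not distinguishable by counting error.

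Median occupancy was also lower over all mRNAs with upstream start codons, as a description with no test. Over all genes, transcripts with no upstream ATG had a median ratio of 0.952 at 36 h and 0.961 at 72 h. With at least 1 upstream ATG the median was 0.636 and 0.590, with upper quartiles of 0.994 and 0.946, and with an overlapping upstream frame it was 0.598 and 0.549. ATF4 and DDIT3, whose MANE Select transcripts have an overlapping frame, lay below the lower quartile of that class (0.371 and 0.323) at both times. ATF5, the third gene with such a frame, lay below it at 36 h (0.232) and above the median of the class at 72 h (0.740). In the dCas9 libraries alone, ATF5 at 72 h stood at 0.440, below that median.

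**Figure D3:**
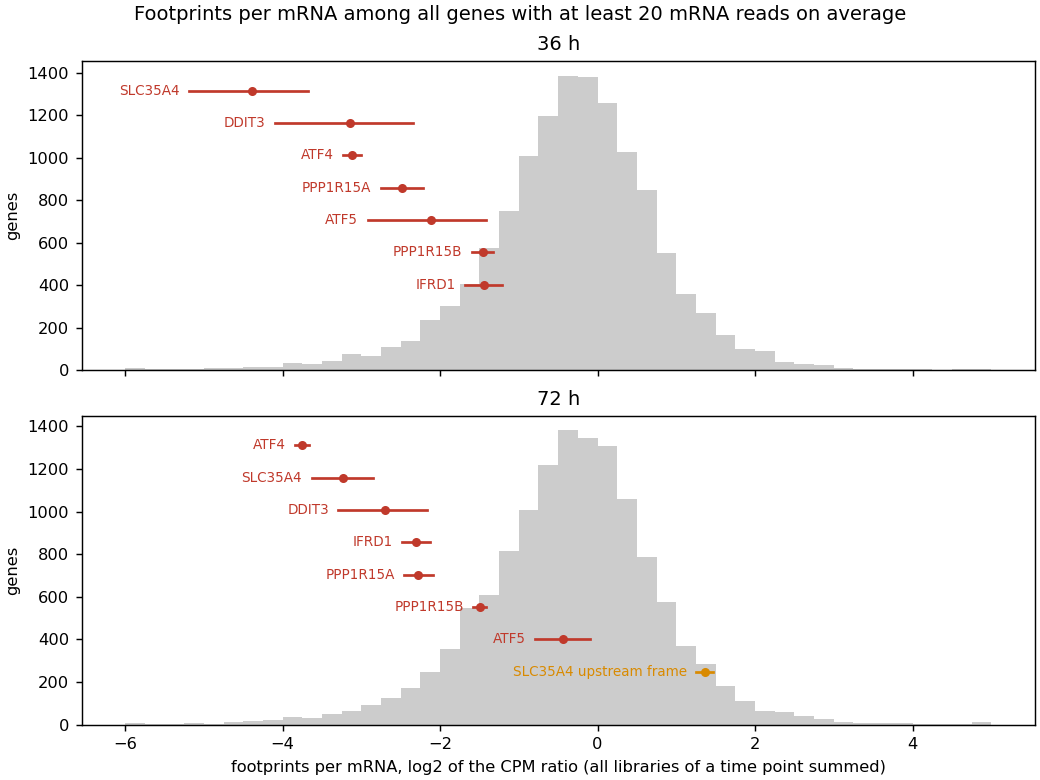
Footprints per mRNA of the 7 main frames (red points) and of the upstream frame of SLC35A4 (orange) on a log2 axis. Lines through the points are exact Poisson 95% intervals of the footprint count. The grey histogram gives the number of genes, over all genes with a mean of at least 20 mRNA reads. Most red points lie to the left of the bulk of genes, with ATF4 at a ratio of 0.0744 at 72 h. ATF5 at 72 h, with both nucleases pooled, lies within the bulk at 0.740, and the upstream frame of SLC35A4 lies to the right at 2.57.

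SLC35A4 allowed its upstream frame to be read directly, because the 72 h annotation lists the frame of 103 codons as a coding sequence of its own. The table counted 84 of its codons and 305 of the main frame. In the Cas9 libraries e and f the upstream frame had 119 and 165 footprints and the main frame 9 and 16. In dCas9 e and f the upstream frame had 194 and 239 and the main frame 7 and 25. Per counted codon, upstream footprints outnumbered main-frame footprints 45.7-fold over all libraries (95% interval 34.8 to 60.9), and between 34.7-fold and 101-fold in single libraries.

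The mRNA reads of both frames differed far less. Upstream and main frames had 1646 and 3151 mRNA reads over the 4 libraries, a 1.90-fold higher density on the upstream frame (1.79 to 2.01), with single libraries from 1.76-fold to 1.94-fold. Footprints per mRNA of the upstream frame were accordingly 2.57 (2.38 to 2.76), the 94.7 percentile of all genes, against 0.107 for the main frame. Footprints on the counted parts of both frames thus lay mostly in the upstream frame, in libraries of both nucleases. The transcript on which the upstream frame was counted ends before the main start, in the annotation used for the start codons. Reads on the upstream frame can therefore come from RNA with or without the main frame, which the counts do not separate. Occupancy of the upstream frame on mRNA that carries both frames was not tested.

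**Figure D4:**
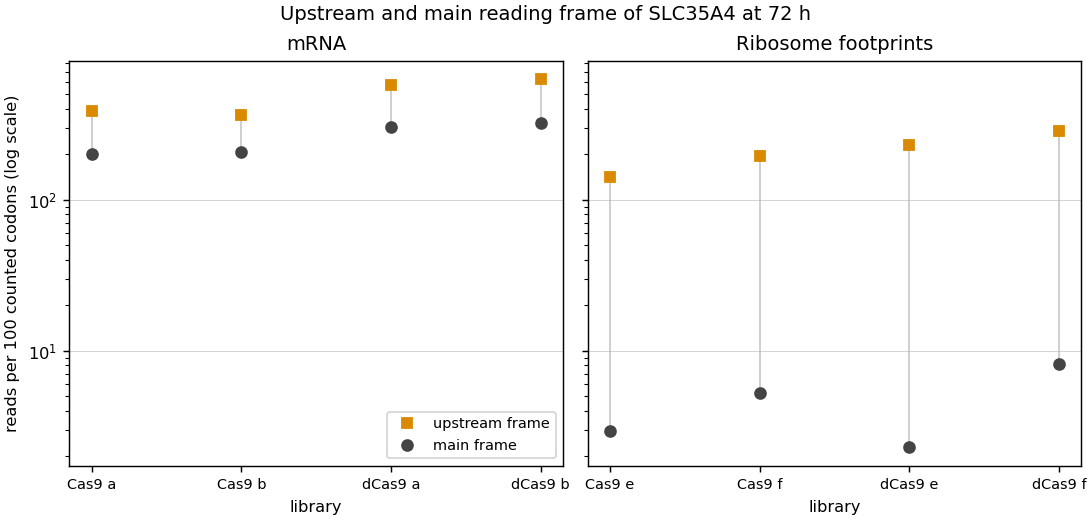
Reads per 100 counted codons (log scale) on the upstream frame (orange squares) and main frame (dark circles) of SLC35A4 in each 72 h library, mRNA on the left and footprints on the right. In mRNA the upstream frame lies 1.76-fold to 1.94-fold above the main frame, and in footprints 34.7-fold to 101-fold above it.

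The ATF5 ratio at 72 h needs a second reading of its counts. A transcript of 88 codons in the 72 h annotation shares the first 59 codons of the main frame, and reads that fit several transcripts are counted on each. It held 52 footprints, against 71 on the main transcript, or 73.2 per 100. In mRNA it held only 33 reads against 565, or 5.84 per 100. The short transcript has 69 counted codons and the main one 263, so its mRNA reads were also few for its length. Footprints thus fell within this short stretch far more often than mRNA reads did, and the counts do not say how many lay in the shared codons. Library Cas9 e departed from this, with 1 footprint on the short transcript and 7 on the main one, and Cas9 f had 29 and 35.

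The question of the study's design was whether cutting by Cas9, compared with binding by dCas9, changed the mRNA, the footprints or the ratio of both (translational efficiency). Each was tested with edgeR's quasi-likelihood test over all genes at a false discovery rate of 0.1. None of the 7 genes passed in any comparison of the main fits, which kept all libraries and applied no GC correction. Some passed in mRNA at 72 h under alternatives given below. The transcription factors are described first, then the phosphatase subunits, then SLC35A4 and IFRD1, with fold changes as Cas9 over dCas9.

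At 36 h, 0 of 7 genes passed in mRNA, 0 of 4 in footprints and 0 of 4 in translational efficiency. Over all genes the share that passed was 0.00780% in mRNA, 0% in footprints and 0% in translational efficiency, so few genes of any kind passed. At an unadjusted p under 0.05 there were 189 of 9035 genes in footprints and 568 of 9016 in translational efficiency, and DESeq2 called 0 and 1. The groups did not overlap for 1 of 4 genes in footprints, PPP1R15A, against 30.5% of all genes, and for 1 of 7 in mRNA, ATF5, against 18.1%.

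For ATF4, mRNA at 36 h was 586, 569 and 533 CPM in Cas9 a, b and c and 576 and 658 in dCas9 d and e. Footprints were 81.5 and 58.4 CPM in Cas9 a and c and 64.3 and 105 in dCas9 d and e, from 76, 145, 319 and 70 reads. The groups overlapped in both, and the highest library was the same dCas9 lysate, e. The log2 fold change was -0.13 ± 0.091 (SE) in mRNA, -0.25 ± 0.35 in footprints and -0.05 ± 0.27 in translational efficiency, with a 95% interval for the last of -0.62 to 0.53 (adjusted p = 0.985, edgeR). A fall to 0.649-fold or a rise to 1.44-fold thus lay within the interval.

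ATF5 mRNA was higher in every Cas9 library at 36 h, at 8.33, 9.31 and 7.34 CPM against 6.96 and 6.38 in dCas9. Its log2 fold change came to 0.32 ± 0.28 (SE), far from the threshold (adjusted p = 0.998, edgeR). Its footprints were 0 and 10 reads in Cas9 a and c and 6 and 0 in dCas9 d and e, too few to compare. DDIT3 mRNA was 12.2, 11.9 and 11.6 CPM in Cas9, between the dCas9 values of 7.79 and 14.6, so the spread lay within dCas9.

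PPP1R15A had the widest difference in footprints of the 4 genes tested. It had 9 and 18 footprints in Cas9 a and c and 62 and 26 in dCas9 d and e, or 9.66 and 7.25 CPM against 12.5 and 39.0. Both Cas9 libraries were lower, but the dCas9 libraries differed from each other by more than dCas9 d differed from Cas9. Its mRNA overlapped, at 81.9, 63.6 and 66.7 CPM in Cas9 and 73.2 and 68.2 in dCas9. The log2 fold change in footprints was -1.55 ± 0.85 (SE, 95% interval -3.33 to 0.23; adjusted p = 0.999, edgeR). In translational efficiency it was -1.23 ± 0.57 (-2.45 to -0.0019; adjusted p = 0.791). Without dCas9 e, the shallowest library, the footprint value was -0.58.

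PPP1R15B footprints were 33.3 and 58.4 CPM in Cas9 a and c and 50.2 and 66.0 in dCas9 d and e, from 31, 145, 249 and 44 reads. Its mRNA was 149, 150.6 and 132 CPM in Cas9 and 143 and 141 in dCas9. Both measures overlapped, with log2 fold changes of -0.28 ± 0.40 (SE) and 0.02 ± 0.10. SLC35A4 mRNA was 40.9, 41.5 and 34.0 CPM in Cas9 and 32.7 and 35.4 in dCas9, with 0, 8, 4 and 4 footprints in Cas9 a and c and dCas9 d and e. IFRD1 mRNA was 42.2, 45.3 and 54.8 CPM in Cas9 and 47.0 and 36.5 in dCas9. Its footprints, 21.5 and 15.7 CPM in Cas9 and 16.5 and 15.0 in dCas9, also overlapped (log2 fold change 0.21 ± 0.71).

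At 72 h, 0 of 7 genes passed in mRNA, 0 of 4 in footprints and 0 of 4 in translational efficiency, against 2.11%, 0.0365% and 0.716% of all genes. The mRNA of 6 of the 7 genes nevertheless did not overlap between the nucleases, against 47.5% of all genes with 2 libraries in each group. ATF4, DDIT3 and IFRD1 were higher in both Cas9 libraries, and ATF5, PPP1R15B and SLC35A4 were lower in both. In footprints 1 of the 4 tested genes did not overlap, PPP1R15B, against 31.7% of all genes.

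For ATF4, mRNA at 72 h was 636 and 628 CPM in Cas9 a and b and 593 and 528 in dCas9 a and b, which is a difference of 0.17 ± 0.11 on the log2 scale (SE; adjusted p = 0.503, edgeR). Footprints were 47.0 and 44.2 CPM in Cas9 e and f and 47.4 and 40.3 in dCas9 e and f, from 150, 261, 319 and 355 reads. Cas9 lay within the dCas9 range. The footprint change of 0.06 ± 0.14 had a 95% interval of -0.22 to 0.34, or 0.857-fold to 1.26-fold. The change in translational efficiency was -0.12 ± 0.16 (-0.45 to 0.21; adjusted p = 0.819).

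ATF5 mRNA at 72 h was 3.35 and 3.65 CPM in Cas9 and 4.35 and 4.16 in dCas9, or -0.28 ± 0.19 on the log2 scale (SE; adjusted p = 0.526, edgeR). Its footprints were higher in both Cas9 libraries, at 7 and 35 reads against 14 and 15 in dCas9, or 2.20 and 5.92 CPM against 2.08 and 1.70. ATF5 missed the count minimum in footprints. With no minimum, the change in translational efficiency was 1.54 ± 0.51 (adjusted p = 0.264, edgeR) and that in footprints 1.19 ± 0.54 (adjusted p = 0.999). Library Cas9 f carried most of it, since Cas9 e at 2.20 CPM was close to dCas9 e at 2.08. DDIT3 mRNA was 8.02 and 7.53 CPM in Cas9 and 7.46 and 6.70 in dCas9 (log2 fold change 0.14 ± 0.16). It had 4 and 4 footprints in Cas9 and 8 and 12 in dCas9.

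PPP1R15A did not repeat its 36 h difference at 72 h. Footprints were 37 and 63 reads in Cas9 e and f and 57 and 94 in dCas9 e and f, or 11.6 and 10.7 CPM against 8.47 and 10.7, and mRNA was 54.4 and 48.3 CPM against 50.3 and 45.0. The log2 fold change was 0.20 ± 0.29 (SE) in footprints and 0.09 ± 0.25 in translational efficiency. PPP1R15B had slightly more footprints in both Cas9 libraries, at 53.9 and 52.5 CPM against 49.6 and 49.3, and slightly less mRNA, at 139 and 142 CPM against 145 and 146. Its change in translational efficiency was 0.15 ± 0.16 (-0.18 to 0.49; adjusted p = 0.750, edgeR).

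SLC35A4 and IFRD1 had the widest mRNA differences of the 7 genes at 72 h. SLC35A4 mRNA was 17.6 and 19.3 CPM in Cas9 and 26.6 and 23.0 in dCas9, a log2 difference of -0.43 ± 0.15 (SE, 95% interval -0.75 to -0.10; adjusted p = 0.242, edgeR). IFRD1 mRNA was 63.3 and 57.7 CPM in Cas9 and 44.6 and 51.4 in dCas9, a log2 fold change of 0.33 ± 0.14 (0.04 to 0.63; adjusted p = 0.317). Neither passed the false discovery rate. Both passed it without dCas9 library b, where 23.5% of all genes passed, at -0.53 for SLC35A4 (adjusted p = 0.0229, edgeR) and 0.44 for IFRD1 (adjusted p = 0.0287). After a correction for coding GC content, added after the data had been seen, 3 of the 7 genes passed in mRNA, and 16.4% of all genes did. They were SLC35A4 at -0.34 (adjusted p = 0.0420, edgeR), ATF4 at 0.22 (adjusted p = 0.0770) and IFRD1 at 0.22 (adjusted p = 0.0864), whose coding GC contents are 60.9%, 52.6% and 43.8%.

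No footprint change or change in translational efficiency passed for either gene. SLC35A4 had 9 and 16 main-frame footprints in Cas9 and 7 and 25 in dCas9, below the count minimum. Its upstream frame gave enough reads for a test, which was added after the data had been seen. Upstream-frame mRNA changed by -0.49 ± 0.15 (SE; adjusted p = 0.193, edgeR) and footprints by 0.19 ± 0.17 (adjusted p = 1.00). The change in translational efficiency was 0.69 ± 0.25 (0.16 to 1.22; adjusted p = 0.308). Footprints per mRNA of the upstream frame were 3.33 (2.96 to 3.74) in Cas9 and 2.13 (1.94 to 2.34) in dCas9, but the difference did not pass the false discovery rate. IFRD1 footprints were 9.41 and 12.2 CPM in Cas9 and 12.0 and 9.87 in dCas9, with a change of 0.02 ± 0.28 in footprints and -0.31 ± 0.25 in translational efficiency (adjusted p = 0.683).

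**Figure D5:**
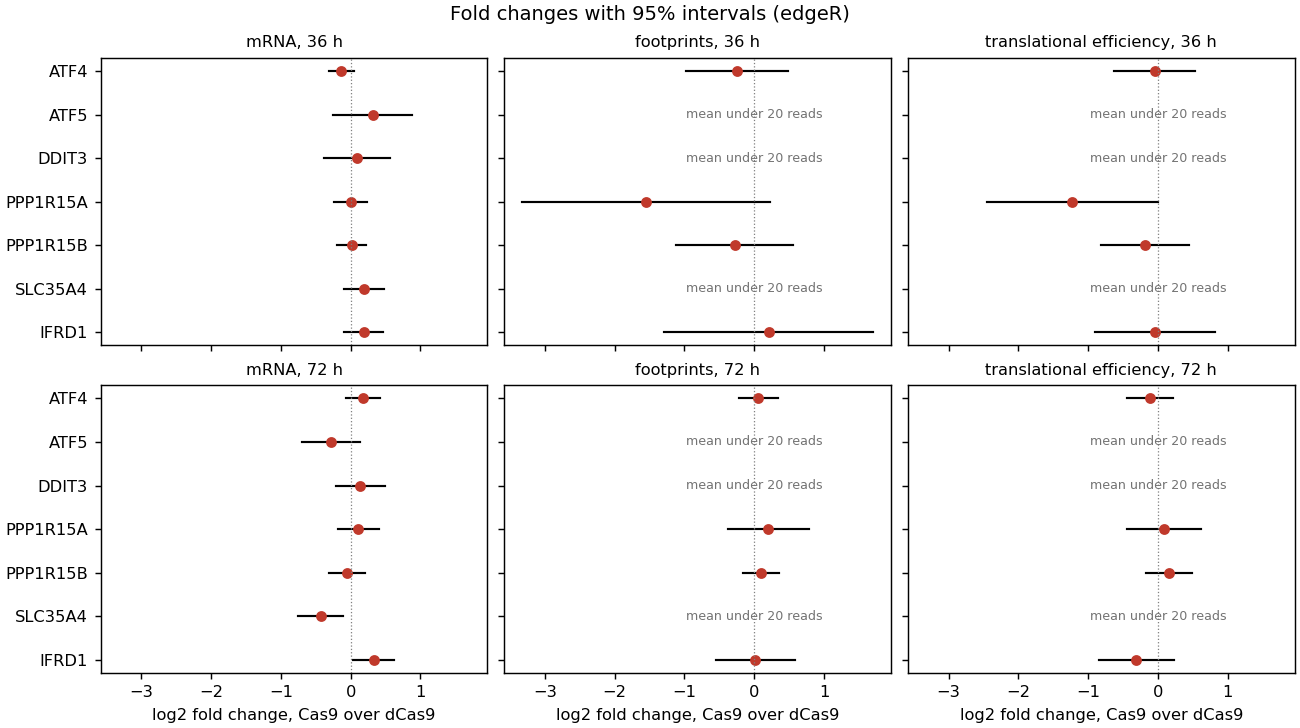
Log2 fold change of Cas9 over dCas9 for the 7 genes, with 95% intervals from edgeR, in mRNA, footprints and translational efficiency (left to right) at 36 h (top) and 72 h (bottom). Genes with a mean under 20 reads were not tested. Intervals for SLC35A4 and IFRD1 mRNA at 72 h, at -0.43 and 0.33, leave out 0 before adjustment, as does PPP1R15A in translational efficiency at 36 h by a margin too small to see.

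The rest of the pathway was read from lists of genes. In the main fits, no gene passed the false discovery rate in any comparison among 12 genes of the eIF2 kinases, eIF2 and its exchange factor eIF2B. The same held for 11 phosphatase partners and reinitiation factors, 14 other mRNAs with upstream frames or stress-resistant translation, and 16 transcriptional targets of ATF4 and CHOP. ATF4 protein and activity were not measured, so the targets of ATF4 and CHOP are described as a list only. Their median log2 fold change in mRNA was 0.04 at 36 h (14 genes tested) and 0.05 at 72 h (15 genes tested), against -0.002 and 0.02 over all genes. Their footprints had medians of 0.22 (13 genes tested) and 0.01 (14 genes tested), against 0.01 and 0.002 over all genes.

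The kinases and subunits of eIF2 and eIF2B had median changes of 0.19 in footprints and 0.04 in mRNA at 36 h (11 genes tested), and of -0.02 and -0.01 at 72 h (12 genes tested). The phosphatase partners and reinitiation factors had medians of -0.11 and -0.03 at 36 h and 0.01 and 0.09 at 72 h (11 genes tested). For the other mRNAs with upstream frames, medians in footprints were 0.17 at 36 h (8 genes tested) and 0.09 at 72 h (12 genes tested). Their mRNA medians were 0.01 and 0.12 (14 genes tested). The smallest adjusted p of all these lists was 0.148 (edgeR), in mRNA at 72 h, in the list of phosphatase partners and reinitiation factors. The 7 genes themselves had medians of 0.09 in mRNA at 36 h and 0.11 at 72 h, and, over the 4 tested, of -0.26 and 0.08 in footprints. In translational efficiency at 36 h and 72 h, those 4 had medians of -0.12 and -0.02, against 0.01 and 0.0009 over all genes. The lists, in the order first named, had medians of 0.12, -0.08, -0.12 and 0.16 at 36 h. At 72 h they were -0.02, -0.12, -0.06 and 0.02. Among the marker genes, only NEFM, a neurofilament gene of the HEK293 list, passed in mRNA at 72 h, at -0.89 ± 0.20 on the log2 scale (SE; adjusted p = 0.0688, edgeR). Its part in the other results was not tested.

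The genes whose pattern over the 17 libraries was most like that of ATF4 were SRSF3, a splicing factor, SARS1, the seryl-tRNA synthetase, and AAAS, a protein of the nuclear pore. Their log2 CPM, centred within each library type and time point, had Pearson correlations with ATF4 of 0.942, 0.928 and 0.918 among 8969 genes. Over the 9 mRNA libraries alone, which were among the 17 used to pick these genes, the correlations were 0.810, 0.892 and 0.960. Of the 7 genes, PPP1R15A stood at 0.739, PPP1R15B at 0.0883 and IFRD1 at -0.05, and over the mRNA libraries alone at 0.398, -0.0023 and -0.27. The points share libraries and depth, and the spread of ATF4 was larger in footprints (SD 0.238 on the log2 scale) than in mRNA (0.102), so the correlations weigh the shallow footprint libraries at 36 h most.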

How the data were processed

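Ribosome footprints and mRNA of HEK293 cells were sequenced in 17 libraries, and groups were taken from the labels. The nuclease of the Cas9 footprint libraries at 72 h came from the treatment label. The footprint library of Cas9 b (36 h) was not analysed here. The authors aligned reads with hisat2 to GENCODE 22 at 36 h (HISAT2 2.1.0 in the submitters' processing notes) and with tophat to GENCODE 25 at 72 h. They deposited counts of reads per transcript, unnormalized, beside the counted coding length, which leaves out 20 codons at 36 h (96.2% of transcripts) and 19 at 72 h (96.6%). Reads shared by transcripts of 1 gene count for every one of them.

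Transcripts were matched to GENCODE 44 on hg38 (95.0% and 96.5% of identifiers), and the transcript with the highest summed count was kept per gene and time point. Leaders are those of MANE Select transcripts, which for ATF4 (both times) and DDIT3 (72 h) are not the transcript kept. Each library type and time point was fitted in edgeR 4.0.16 (R 4.3.3) with TMM factors and its quasi-likelihood test, for genes with a mean of at least 20 reads, with Benjamini-Hochberg adjustment at 0.1. Translational efficiency was the interaction of nuclease and library type. Standard errors came from the fold change and the F statistic.

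The rule for named genes took the 7 genes, genes of the other lists past the threshold (up to 4 per comparison), the cell markers and the 3 genes most correlated with ATF4. Members and lists were chosen with earlier results of these data known. Alternatives were other size factors, DESeq2 1.42.0, limma 3.58.1 voom, no count minimum, joint fits, 1 transcript for both times, a replicate block and leaving out each library. After the data had been seen, a crossed block, a GC correction, the SLC35A4 upstream frame and the MANE Select DDIT3 transcript at 72 h were added. The code was tested on simulated data.

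A letter at 36 h links the footprint and mRNA library of 1 lysate, whose deviations correlated at 0.010 to 0.076. At 72 h Cas9 and dCas9 share letters, with correlations of 0.0100 in footprints and -0.10 in mRNA.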

Additional observations from a re-analysis of the deposited data

Results flagged for a closer look

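ATF5 mRNA went in opposite directions at the 2 time points. Every Cas9 library lay above every dCas9 library at 36 h, with a log2 fold change of 0.32, and every Cas9 library lay below every dCas9 library at 72 h, with a log2 fold change of -0.28. Neither value passed the false discovery rate in edgeR, and the difference between the time points was not tested. Guide synthesis, aligner and annotation differ between the times and cannot be told apart from time.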

How the results depend on the processing

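Of 161 values for the 7 genes with 1 library left out, 137 kept their direction and side of the threshold, 2 became significant and 22 changed sign. Of 249 values under the other alternatives, 241 were kept, 3 became significant and 5 changed sign, and 28 of 28 footprints-per-mRNA values stayed within the spread between libraries. ATF4 translational efficiency at 36 h became 0.047 with limma voom, IFRD1 became 0.0030 with the replicate block and 0.061 with GC content removed. IFRD1 footprints at 72 h became -3.91e-06 with DESeq2, and PPP1R15A translational efficiency at 72 h became -0.031 with GC content removed.

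Counts of genes passing over all genes moved more, and the cause was not tested. In mRNA at 36 h 2 genes passed with no count minimum and 0 in the joint fit, against 1, and in translational efficiency 1 passed with DESeq2. In footprints at 72 h 0 passed in the joint fit and 7 with GC content removed, against 4. In mRNA at 72 h, against 278, the count was 149 with DESeq2 size factors, 432 with total counts, 494 with no minimum, 614 in the joint fit and 2160 with GC content removed, where 3 of the 7 genes passed. In translational efficiency at 72 h, against 78, it was 170 with DESeq2 size factors, 126 with total counts, 221 with DESeq2, 136 with limma voom and 582 with GC content removed.

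The letters at 72 h mark no stated pairing, so the replicate block is only an alternative. With it 7 genes passed in footprints, 759 in mRNA and 88 in translational efficiency at 72 h, and 0 in translational efficiency at 36 h. With the letters of the mRNA libraries crossed, 812 passed in mRNA and 249 in translational efficiency. None of the 7 genes passed with either block.

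With 1 library left out, 0 to 80 genes passed in footprints, 0 to 567 in mRNA and 0 to 365 in translational efficiency at 36 h, each highest without a library of dCas9 d. At 72 h the ranges were 1 to 42, 7 to 3077 and 1 to 1065, with both high mRNA and efficiency counts without mRNA library dCas9 b, and 0 to 2 of the 7 genes passed in mRNA. Fold changes that changed sign were, in footprints at 36 h, ATF4 (-0.62 to 0.10), PPP1R15B (-0.78 to 0.023) and IFRD1 (-0.026 to 0.43), and in mRNA DDIT3 (-0.29 to 0.62), PPP1R15A (-0.12 to 0.072) and PPP1R15B (-0.018 to 0.081). In translational efficiency at 36 h they were ATF4 (-0.55 to 0.25), PPP1R15B (-0.72 to 0.087) and IFRD1 (-0.23 to 0.23). At 72 h they were ATF4 (-0.063 to 0.17) and IFRD1 (-0.21 to 0.16) in footprints and ATF4 (-0.23 to 0.016) and PPP1R15A (-0.059 to 0.28) in translational efficiency. With 1 library left in an arm, it is assumed to vary like the others. Depth limits ATF5, DDIT3 and SLC35A4, whose main-frame footprints stayed under 20 on average.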
